A study of Mus musculus with 9 samples.

Results

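The ubiquitin and proteasome genes of the heart were followed here on bead arrays of control mice and of 2 transgenic lines, called K-line and N-line. A gene was included when the number in its probe code was the NCBI gene number of a mouse gene whose symbol starts with Psma, Psmb, Psmc, Psmd, Psme, Ube2, Usp and a digit, Fbxo or Fbxl, apart from Usp9x and Usp9y. This gave 85 genes on 110 probes, of 8102 genes that could be named and 46657 probes in all. Of these, 68 genes on 77 probes were above background on enough arrays to be tested, among 4616 named genes and 19691 probes tested. The remaining 17 genes did not pass that filter and have no value below. The symbol alone brought in Usp6nl, a Rab GTPase-activating protein, and Psme3ip1, a protein that binds an activator subunit, and neither is an enzyme or subunit of the system.

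The hearts came from FVB mice aged 14 days that the labels give as male, with 3 arrays in each group. Control animals are not described further by the labels. N-line animals carried the wild-type form of a membrane transporter as a transgene, and K-line animals carried a constitutively active mutant form of the same transporter. The promoter and the cell type that drive the transgenes are not given in the sources used here, and neither is the number of founders behind a line. Arrays are numbered by group in the labels, which do not say that each stands for a separate animal. The p-values below set differences of group means against the spread of these samples only, and that spread may be technical.

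Ubiquitin is attached to proteins by a relay of activating (E1), conjugating (E2) and ligating (E3) enzymes, and deubiquitinases remove it. Chains of ubiquitin of certain types send a protein to the 26S proteasome, in which a 20S barrel of alpha and beta subunits cuts the protein and a 19S cap of ATPases and other subunits binds, unfolds and feeds it in. In heart muscle this system removes damaged and surplus contractile and signalling proteins, and F-box proteins are the parts of one class of E3 ligase that choose the substrate.

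The K-line arrays stood apart in several ways that the design ties to the transgene. All 3 lay on a slide of their own while the other 6 shared a slide, so the effects of slide and of line cannot be told apart. Xist, read by a pair of probes, was above background in all of K-line (3 of 3) and on none of the other 6 arrays, whereas Kdm5d, Ddx3y and Eif2s3y, which are Y-linked, were detected on none of the K-line arrays and on at least 2 of 3 arrays of each other group. The K-line arrays thus went against the label male, and their differences from the other groups cover sex as well. Of the tested members only Usp11 is X-linked, with a K-line minus control difference of -0.15 (SE 0.13, adjusted p = 0.437). Markers of macrophages and leukocytes also moved, with all 9 tested markers higher in K-line and their summed level at 1879 to 2014 on control, 1963 to 2049 on N-line and 5120 to 9057 on K-line arrays. The leukocyte marker Ptprc was detected on no control array. It passed the filter only through arrays of the transgenic lines, so its rise adds nothing to that count. In whole heart RNA, fewer cells of a type and less RNA per cell cannot be told apart, and the part of sex, slide or leukocytes in the results below was not tested. Heart muscle markers were present in every group, with summed levels of 25957 to 27931 on control, 31928 to 34051 on K-line and 26749 to 29103 on N-line arrays, and 2 of 5 rose and 1 fell in K-line. Of 5 endothelial markers Robo4 (-0.43) and Cav1 (-0.29, called in 9 of 19 alternatives) fell, and the summed level was 19172 to 20248 on control, 16365 to 17161 on K-line and 18860 to 19248 on N-line arrays. Of 4 red blood cell markers Ank1 (-0.99) and Dmtn (-1.26) fell, with sums that overlapped (27843 to 29762 on control and 25777 to 30296 on K-line). Of 10 cell cycle genes 3 rose and 1 fell, with sums of 3961 to 4422 on control and 3231 to 3714 on K-line arrays, and of 7 fibroblast markers Postn rose (1.07) and Fbln1 fell (-0.62), with sums of 38048 to 40057 and 38244 to 46573. The share called in K-line minus control was 100% of the leukocyte, 60% of the heart muscle and 50% of the red blood cell markers. It was 40% of the endothelial markers, 40% of the cell cycle genes and 28.6% of the fibroblast markers, beside 24.4% of all tested probes. The part of these lists in the results below was not tested either.

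The comparison of K-line with control hearts asked which of these genes differed with the active mutant. Of 17 tested subunits of the 20S barrel and 19S cap, 9 rose in K-line, none fell and 8 did not pass, and the fitted differences of all 17 were above 0. Psmc1 passed the detection filter only through arrays of the transgenic lines, so its sign adds nothing, and the other 16 lay above 0. Outside that core the picture was mixed, with 6 genes risen and 3 fallen among 51. Over all 68 tested members 15 rose, 3 fell and 50 did not pass (limma, adjusted p under 0.05), which is 26.5% against a background of 24.4% of all tested probes (12% higher and 12.4% lower). The members together were therefore called about as often as any probe, and the share was 52.9% within the 20S and 19S subunits and 17.6% in the remaining members. The median log2 difference was 0.44 over the 17 subunits and 0.09 over the other 51 members, beside -0.01 over all tested probes. No set of members was tested as a set, and the members of a complex are not independent of each other.

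**Figure D1:**
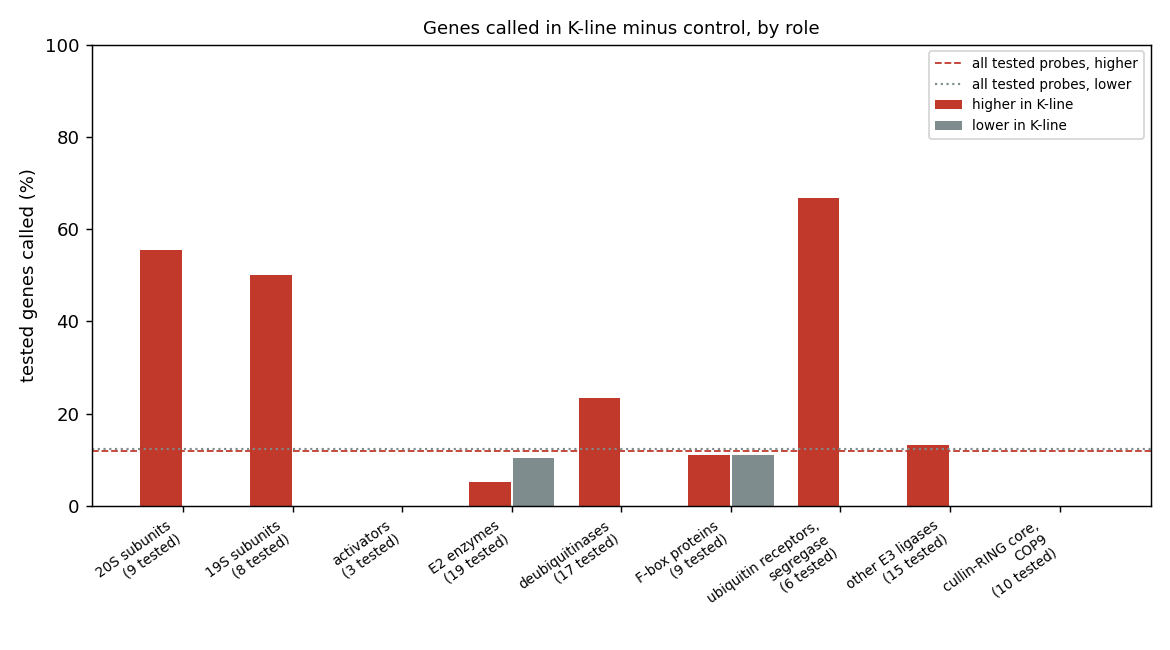
Share of tested genes called higher (red bars) or lower (grey bars) in K-line minus control, in percent, for a selection of roles, with the number of genes tested under each name. The dashed and dotted lines are the shares of all tested probes called higher (12%) and lower (12.4%). The bars for higher genes stand above the line in the 20S subunits (55.6%), the 19S subunits (50%), the deubiquitinases (23.5%), the ubiquitin receptors and, by little, the other E3 ligases, and below it in the remaining roles drawn. Counted by gene and not by probe, 618 of 4616 named genes were called higher, beside 2 of 15 other E3 ligases.

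On single arrays, the median deviation of the 17 subunits from their control mean was 0.34 in K-line 3, 0.39 in K-line 5 and 0.54 in K-line 6 on the log2 scale. The same median lay between 0.01 and 0.05 on the 3 N-line arrays and between -0.02 and 0.03 on the 3 control arrays. All 3 K-line arrays thus stood above every other array, and 17, 15 and 17 of the 17 subunits lay above the control mean on them. Without Psmc1 the K-line medians were 0.32, 0.42 and 0.52, with 16, 15 and 16 of 16 subunits above the control mean. In 14 of the 17 subunits the K-line and control values did not overlap, beside 19.5% of all tested probes that were separated in the same direction. The direction depended on the scaling in a few subunits, since 16 of 17 were higher after scaling each array to its median, with 7 called, and 15 of 17 in the authors' value table after centring, with 5 called. Measured from the median of all probes, the subunits' median was 0.45 here, 0.37 after median scaling and 0.33 in the authors' table. Of the 9 that rose, Psmb5, Psmb10, Psma5 and Psmd11 were called under all 20 alternative settings, with differences of 0.41 to 0.74, 0.32 to 0.65, 0.63 to 1.37 and 0.66 to 1.17.

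The beta subunits carry the cutting sites of the barrel. Psmb5, the chymotrypsin-like subunit, had log2 levels of 10.52, 10.51 and 10.44 on the control arrays, 11.01, 11.04 and 11.31 on the K-line arrays and 10.48, 10.43 and 10.52 on the N-line arrays. Every K-line array was above all others, and control and N-line overlapped. The K-line difference was 0.63 (SE 0.10), or 1.55-fold, with an adjusted p of 0.00136. Psmb6, the caspase-like subunit, was at 12.52, 12.62 and 12.57 on control, 12.83, 13.11 and 13.11 on K-line and 12.59, 12.59 and 12.53 on N-line arrays. The lowest K-line array, K-line 3, still lay above every control and N-line array. It rose by 0.44 (SE 0.10, adjusted p = 0.00872), a call that was lost with median scaling (0.28, adjusted p = 0.0689) and in the authors' centred table (0.18, adjusted p = 0.231). Psmb3, a beta subunit with no cutting site of its own, differed by 0.24 (SE 0.09, adjusted p = 0.0619) without passing the test. The gene of the remaining standard catalytic subunit, Psmb7, was not analysed here.

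The immunoproteasome is a variant barrel in which inducible catalytic subunits, known from immune cells and interferon-treated cells, replace the standard ones. Psmb10, its trypsin-like subunit, was at 10.13, 10.29 and 10.23 on control, 10.67, 10.77 and 10.71 on K-line and 10.47, 10.47 and 10.40 on N-line arrays. The 3 groups formed separate steps, with N-line between control and K-line. It rose in K-line by 0.50 (SE 0.09, adjusted p = 0.00228), whereas the N-line difference of 0.23 (SE 0.09, adjusted p = 0.298) did not pass. Psmb8, the chymotrypsin-like immunoproteasome subunit, was dim, at 5.18, 5.74 and 5.62 on control, 5.79, 5.83 and 5.88 on K-line and 5.51, 5.79 and 5.74 on N-line arrays. Its K-line values lay just above control, and the difference of 0.32 (SE 0.14, adjusted p = 0.123) did not pass and was 0.15 without control 1, the lowest array. Psmb9 was not analysed here. Of 7 tested genes of the interferon response 2 rose, which is 28.6% beside 24.4% of all tested probes. Igtp rose by 0.98 and H2-K1 by 0.60, the latter not called without any one control array, K-line 5 or K-line 6. The summed level of the list was 1117 to 1205 on control, 1275 to 1591 on K-line and 1201 to 1292 on N-line arrays.

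The alpha subunits form the outer rings that gate the barrel. Psma5 was at 6.43, 5.997 and 6.16 on control, 6.89, 7.18 and 7.09 on K-line and 5.93, 6.70 and 6.67 on N-line arrays. The K-line arrays were above all others, and the N-line arrays spread from below control to near the lowest K-line array. It rose by 0.86 (SE 0.19, adjusted p = 0.00947), the largest change among the subunits that passed. Psma4 was at 11.88, 11.89 and 12.02 on control, 12.27, 12.54 and 12.47 on K-line and 11.88, 11.79 and 11.99 on N-line arrays, so that K-line stood clear and the other groups overlapped. It rose by 0.49 (SE 0.10, adjusted p = 0.00593), a call lost in the authors' centred table (0.26, adjusted p = 0.0952). Psma3 differed by 0.31 (SE 0.11, adjusted p = 0.0572) and Psma2 by 0.16 (SE 0.10, adjusted p = 0.263), neither past the test. Without K-line 5, Psma3 passed (0.38, adjusted p = 0.035).

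**Figure D2:**
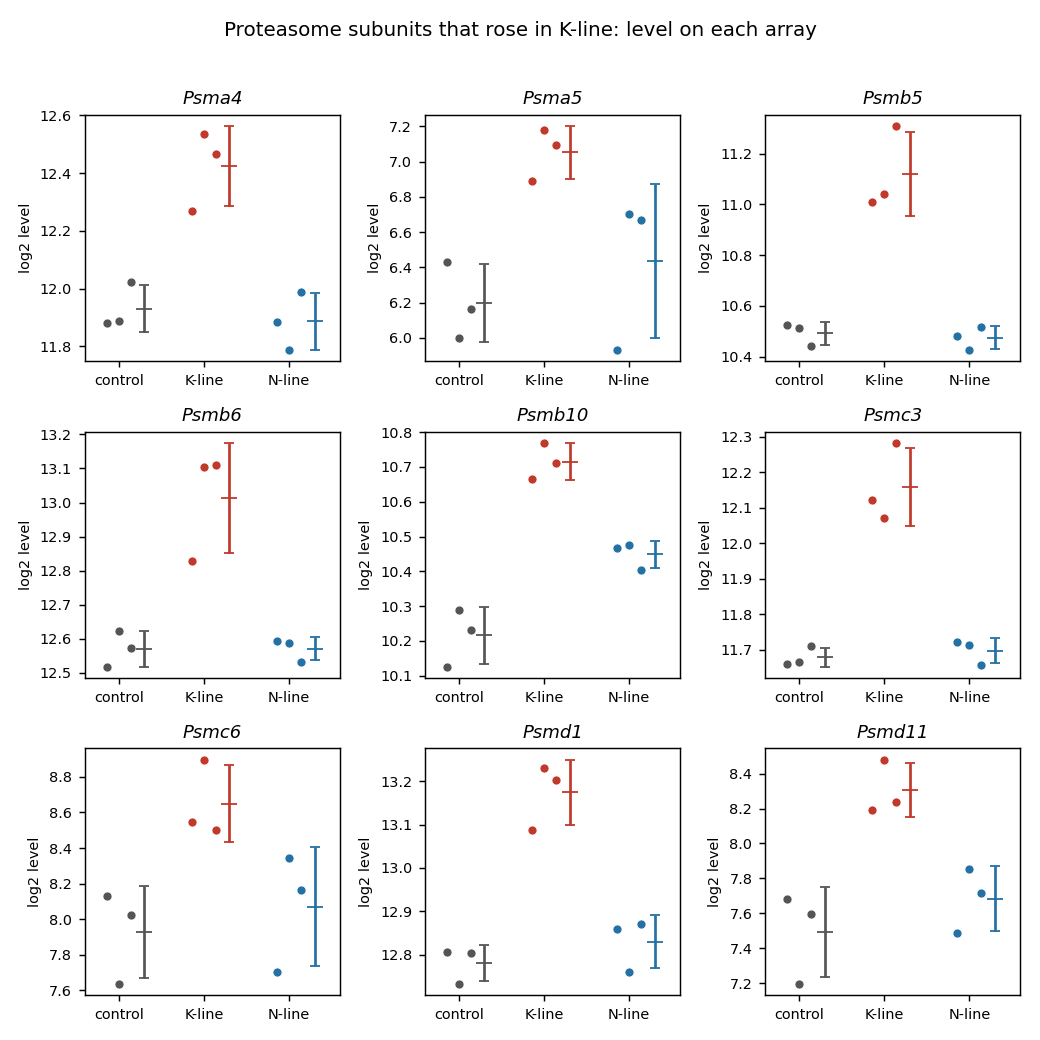
Level on each array (log2 intensity after background correction and quantile normalization; each panel has its own axis, not starting at 0) of the 9 proteasome subunits that rose in K-line, with points for the 3 arrays of a group and a bar for mean ± SD. In every panel all 3 K-line arrays lie above all control and N-line arrays, and Psmb10 is the one in which N-line also lies wholly above control.

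The ATPases of the 19S cap form the ring that unfolds substrates, and 3 of their genes were tested. Psmc3 was at 11.66, 11.67 and 11.71 on control, 12.12, 12.07 and 12.28 on K-line and 11.72, 11.71 and 11.66 on N-line arrays. Its control and N-line arrays lay within a narrow band well below K-line, and it rose by 0.48 (SE 0.09, adjusted p = 0.00321), which fell to 0.23 (adjusted p = 0.0885) in the authors' centred table. Psmc6 was at 8.13, 7.64 and 8.02 on control, 8.55, 8.90 and 8.50 on K-line and 7.70, 8.35 and 8.17 on N-line arrays. The groups were more spread, yet no K-line array reached down to another group, and it rose by 0.72 (SE 0.18, adjusted p = 0.0162). That call was lost without control 2 (0.57, adjusted p = 0.0636) and without K-line 5 (0.59, adjusted p = 0.0555). Psmc1 behaved unlike the others, at 4.74, 4.62 and 4.78 on control, 9.51, 4.54 and 8.22 on K-line and 5.23, 4.72 and 8.53 on N-line arrays. It was not above background on any control array and was detected on 2 of 3 arrays in each line, where single arrays stood far above the rest. The group means, each with an undetected array, lay 4.84-fold (K-line) and 2.02-fold (N-line) above the lowest detected signal. The adjusted p-values against control were 0.112 and 0.718, so neither passed. Without K-line 5, the array at the level of the controls, K-line passed (adjusted p = 0.00987), and no size is given because control was below background.

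Among the non-ATPase subunits, Psmd11, which clamps the cap to the barrel, was at 7.68, 7.20 and 7.60 on control, 8.19, 8.48 and 8.24 on K-line and 7.49, 7.85 and 7.72 on N-line arrays. K-line was above both other groups, which overlapped. It rose by 0.81 (SE 0.15), or 1.76-fold, with an adjusted p of 0.0028. Psmd1, a large scaffold subunit of the cap's base, was at 12.81, 12.73 and 12.80 on control, 13.09, 13.23 and 13.20 on K-line and 12.86, 12.76 and 12.87 on N-line arrays. Its K-line arrays again lay above all 6 others. It rose by 0.39 (SE 0.09, adjusted p = 0.00813) and lost the call with median scaling (0.21, adjusted p = 0.111) and in the authors' centred table (0.11, adjusted p = 0.424). The lid subunits Psmd8 (0.27, SE 0.09, adjusted p = 0.0544) and Psmd3 (0.24, SE 0.09, adjusted p = 0.0852) fell just outside the test, with groups that did not overlap. Psmd2, the other large base subunit, differed by 0.23 (SE 0.18, adjusted p = 0.38), with K-line 5 at 9.56 among the control values of 9.72, 10.03 and 9.55. Without that array the difference of Psmd2 was 0.46 (adjusted p = 0.0477). Its dimmer second probe gave 0.36 and was not called. Psmd9, named like these subunits but a chaperone for assembly of the base and not counted among them, differed by 0.18 (SE 0.13, adjusted p = 0.326).

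**Figure D3:**
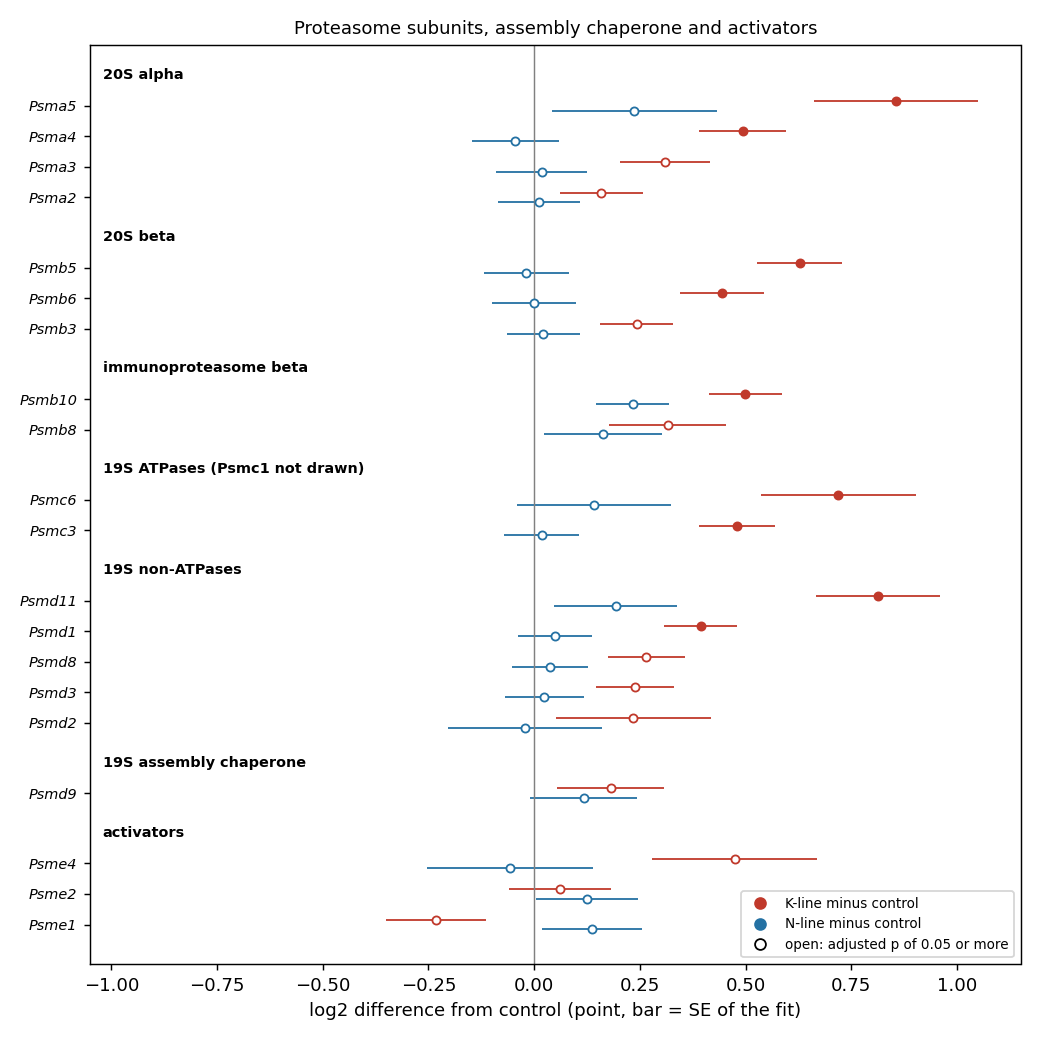
Log2 difference from control (points, with bars for the SE of the fit) of the tested proteasome subunits, the assembly chaperone Psmd9 and the activators in K-line (red) and N-line (blue); filled points passed the test and open points did not, and both lines are compared with the same control arrays. Every subunit lies to the right of 0 in K-line, while in N-line the subunits lie near 0; Psmc1 is left out because it was below background on the control arrays.

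The activators replace the 19S cap at an end of the barrel. Psme1 and Psme2 form one such ring, which is induced by interferon, and Psme4 forms another. Psme1 was at 11.97, 12.10 and 11.95 on control, 11.95, 11.51 and 11.86 on K-line and 12.08, 12.15 and 12.21 on N-line arrays. The K-line values reached down to 11.51 on K-line 5, but the difference from control of -0.23 (SE 0.12, adjusted p = 0.177) did not pass. Psme2 was at 8.43, 8.36 and 8.55 on control, 8.47, 8.43 and 8.62 on K-line and 8.41, 8.83 and 8.48 on N-line arrays, with overlap of all groups and a difference of 0.06 (SE 0.12, adjusted p = 0.754). Psme4 differed by 0.47 (SE 0.20, adjusted p = 0.102), with K-line 3 at 10.25 among the control values and K-line 6 at 11.20. None of the 3 activators passed, though Psme4 did without K-line 3 (0.71, adjusted p = 0.00888).

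Promoters are shown for 4 risen genes that hold the core of the antioxidant response element and for Psmd11, which also rose but holds none. All 3 risen 20S and 19S subunits with a match are printed, and Psmd11 is the only one printed without. Proteasome genes are known targets of factors that bind this element, which is background and not a result here. The core of the element was searched as TGACNNNGC on both strands in the RefSeq promoter window (250 bases before to 50 bases after the annotated start, GRCm38.p6), and matches are in capitals. The 250 bases before the start are printed, read along the gene's strand, for Psmb5 (chr14:54617996-54618245, minus strand), Psmb6 (chr11:70525107-70525356, plus strand), Psmc6 (chr14:45329574-45329823, plus strand), Usp20 (chr2:30982029-30982278, plus strand) and Psmd11 (chr11:80428365-80428614, plus strand).
Psmb5: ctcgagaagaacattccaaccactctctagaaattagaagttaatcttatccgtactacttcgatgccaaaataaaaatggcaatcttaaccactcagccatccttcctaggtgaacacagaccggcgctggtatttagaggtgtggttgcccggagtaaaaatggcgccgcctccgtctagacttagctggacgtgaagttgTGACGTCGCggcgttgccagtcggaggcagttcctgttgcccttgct
Psmb6: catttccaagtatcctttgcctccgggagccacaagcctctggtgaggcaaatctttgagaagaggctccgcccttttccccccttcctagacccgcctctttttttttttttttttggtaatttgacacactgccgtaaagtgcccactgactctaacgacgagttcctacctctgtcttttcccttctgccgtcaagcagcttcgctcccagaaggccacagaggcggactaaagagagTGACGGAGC
Psmc6: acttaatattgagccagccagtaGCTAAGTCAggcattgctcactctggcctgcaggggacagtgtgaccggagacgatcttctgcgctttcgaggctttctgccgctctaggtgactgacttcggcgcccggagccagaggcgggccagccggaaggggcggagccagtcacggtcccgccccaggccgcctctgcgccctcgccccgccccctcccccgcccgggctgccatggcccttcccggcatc
Usp20: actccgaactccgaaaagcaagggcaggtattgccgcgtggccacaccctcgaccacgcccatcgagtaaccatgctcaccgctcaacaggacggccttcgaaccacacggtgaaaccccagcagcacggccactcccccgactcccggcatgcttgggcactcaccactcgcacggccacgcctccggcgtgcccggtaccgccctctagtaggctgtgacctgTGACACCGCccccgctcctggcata
Psmd11: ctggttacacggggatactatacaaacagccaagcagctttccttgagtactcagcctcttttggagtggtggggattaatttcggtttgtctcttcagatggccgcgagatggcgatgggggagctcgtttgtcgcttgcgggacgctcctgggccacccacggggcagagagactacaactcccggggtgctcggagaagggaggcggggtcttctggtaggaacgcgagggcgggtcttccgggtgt
The match starts at position -47 in Psmb5, -9 in Psmb6 and -25 in Usp20, counted back from the start site, and in Psmc6 it lies at -227 on the opposite strand. Over all 27025 genes with such a window, 14% held the motif. It was present in 7 of the 13 risen members that have a window (Psmb5, Psmb6, Psmc6, Ube2v1, Usp10, Usp13 and Usp20), in 9 of 41 members that were not called and in 0 of 3 that fell. Among the 20S and 19S subunits it was present in 3 of 8 that rose and in 0 of 7 that were not called. The core of the interferon-stimulated response element (GAAA, any 2 bases, GAAA) was in 0 of the 13 risen members, in 4 of 41 not called and in 3.99% of all genes. The GC box GGGCGG was in 9 of the 13 (69.2%) and as often in members not called, 29 of 41 (70.7%), beside 38.2% of all genes. The CCAAT box, spelled CCAAT, was in 2 of the 13, in 15 of 41 not called and in 41.1% of all genes. A match describes these letters only and is not a measured site. The risen and not called groups were taken from these same data, and the part of any factor in the rise was not tested.

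Among 19 tested E2 enzymes 1 rose and 2 fell, which is 15.8% beside 24.4% of all tested probes. Ube2v1 and Ube2n encode the partners of a single E2 complex that builds signalling chains of ubiquitin, Ube2n being the catalytic one and Ube2v1 the inactive one, and they moved in opposite directions. Ube2v1 was at 8.49, 8.35 and 8.60 on control, 9.17, 8.95 and 8.74 on K-line and 8.59, 8.67 and 8.54 on N-line arrays. The lowest K-line array was just above the highest of the others, and it rose by 0.47 (SE 0.12, adjusted p = 0.0158), a call that was lost without control 2 (0.41, adjusted p = 0.0625) and in the authors' centred table (0.39, adjusted p = 0.0534). Ube2n was at 9.75, 9.87 and 10.03 on control, 9.52, 9.38 and 9.45 on K-line and 9.85, 9.79 and 9.76 on N-line arrays. All K-line arrays were below all others, and it fell by 0.43 (SE 0.10, adjusted p = 0.00852), a call lost in the authors' table (-0.26, adjusted p = 0.0823). Ube2l3, an E2 that passes ubiquitin to ligases which carry it on their own cysteine, was at 11.59, 11.69 and 11.69 on control, 11.39, 11.18 and 11.35 on K-line and 11.69, 11.47 and 11.33 on N-line arrays. K-line was below control but overlapped N-line, and it fell by 0.35 (SE 0.11, adjusted p = 0.0394). The call was lost without any one control array, K-line 5, K-line 6 or N-line 3 (adjusted p = 0.0519 to 0.111).

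The other 16 tested E2 genes had K-line minus control differences that did not pass. They include the NEDD8-conjugating enzyme Ube2m at 0.18 (SE 0.11, adjusted p = 0.248) and the mitotic enzyme Ube2c at 0.21 (SE 0.16, adjusted p = 0.384), which was detected on 4 of 9 arrays. Ube2e1 (0.28, SE 0.11, adjusted p = 0.0796) and Ube2z (0.26, SE 0.10, adjusted p = 0.0914) had groups that did not overlap. Their dimmer second probes gave 0.08 and -0.09, so the probes of Ube2z did not share a direction, and its brighter probe passed without K-line 3 (0.35, adjusted p = 0.0354). Ube2b, Ube2dnl1 and Ube2v2 were below the filter.

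Of the deubiquitinases, 4 of 17 tested genes rose and none fell. That is 23.5% called, beside 24.4% of all tested probes called in either direction and 12% called higher. Usp20, which removes ubiquitin from internalised beta-adrenergic receptors among other substrates, was at 10.05, 10.14 and 10.23 on control, 11.05, 10.71 and 11.08 on K-line and 10.71, 10.60 and 10.50 on N-line arrays. Both lines lay wholly above control, and K-line 5 was level with N-line 2. It had the smallest adjusted p of all members, with a rise of 0.80 (SE 0.12), or 1.75-fold, and an adjusted p of 0.000734. Usp12, which works with a WD-repeat cofactor, was dim but steady, at 5.19, 5.26 and 5.28 on control, 5.75, 5.78 and 5.79 on K-line and 5.24, 5.22 and 5.37 on N-line arrays. The K-line arrays were tightly grouped above the other 6, and it rose by 0.53 (SE 0.09, adjusted p = 0.00148). Usp20 and Usp12 were called under all 20 alternatives, with differences of 0.61 to 0.94 and, for the dim Usp12, 0.30 with a larger offset to 1.22 in the authors' table.

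Usp13, a relative of the enzyme that recycles free ubiquitin chains, was at 9.14, 9.20 and 9.29 on control, 9.60, 9.65 and 9.63 on K-line and 9.09, 9.29 and 9.19 on N-line arrays. K-line was clear of both other groups, and it rose by 0.42 (SE 0.09, adjusted p = 0.0074), which fell to 0.26 (adjusted p = 0.0651) in the authors' centred table. Usp10, a cytoplasmic deubiquitinase, was at 8.97, 9.04 and 9.06 on control, 9.45, 9.66 and 9.18 on K-line and 9.01, 9.12 and 8.93 on N-line arrays. K-line 6 lay close to the others, and the rise was 0.41 (SE 0.12, adjusted p = 0.0308). The gene was called in 10 of 20 alternatives, and the call was lost without any one control array, K-line 3 or K-line 5 (adjusted p = 0.0646 to 0.0907). Usp46, a close relative of Usp12, was not above background on any control array and on 2 of 3 K-line arrays, at least 1.07-fold higher (adjusted p = 0.0956). Usp1 differed by 0.22 (SE 0.09, adjusted p = 0.096), but its dimmer second probe gave -0.14 and was not called, so its probes did not share a direction. Usp48 differed by -0.37 (SE 0.16, adjusted p = 0.119), or -0.53 without K-line 5 (adjusted p = 0.0352). Usp17lc belongs to a family of near-identical copies that the probe may not tell apart, and it differed by -0.02. The genes Usp15, Usp17la, Usp17lb, Usp33, Usp34 and Usp53 were below the filter.

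Of the F-box genes, 9 of 17 were tested, 1 rose and 1 fell, which is 22.2% beside 24.4% of all tested probes. Fbxl5, which senses iron and directs the loss of an iron regulatory protein, was at 6.81, 7.14 and 6.90 on control, 7.43, 7.14 and 7.40 on K-line and 7.16, 7.31 and 7.01 on N-line arrays. K-line 5 was level with control 2, and the rise of 0.37 (SE 0.12) was the last to pass, at an adjusted p of 0.0498, and was called in 10 of 20 alternatives. It was lost without control 1, control 3, K-line 3, K-line 6 or any one N-line array. Fbxo42 was at 8.57, 8.58 and 8.43 on control, 8.27, 8.19 and 8.02 on K-line and 8.42, 8.36 and 8.45 on N-line arrays. K-line was below both other groups, and it fell by 0.37 (SE 0.10, adjusted p = 0.0181), a call lost without control 1, control 2 or K-line 6 (adjusted p = 0.0604 to 0.0655). A second, dim probe of Fbxo42 differed by 0.07 and was not called. Fbxo34 (-0.22, SE 0.09, adjusted p = 0.105) and Fbxl20 (-0.26, SE 0.11, adjusted p = 0.104) did not pass. The muscle F-box gene Fbxo32 was not analysed here.

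**Figure D4:**
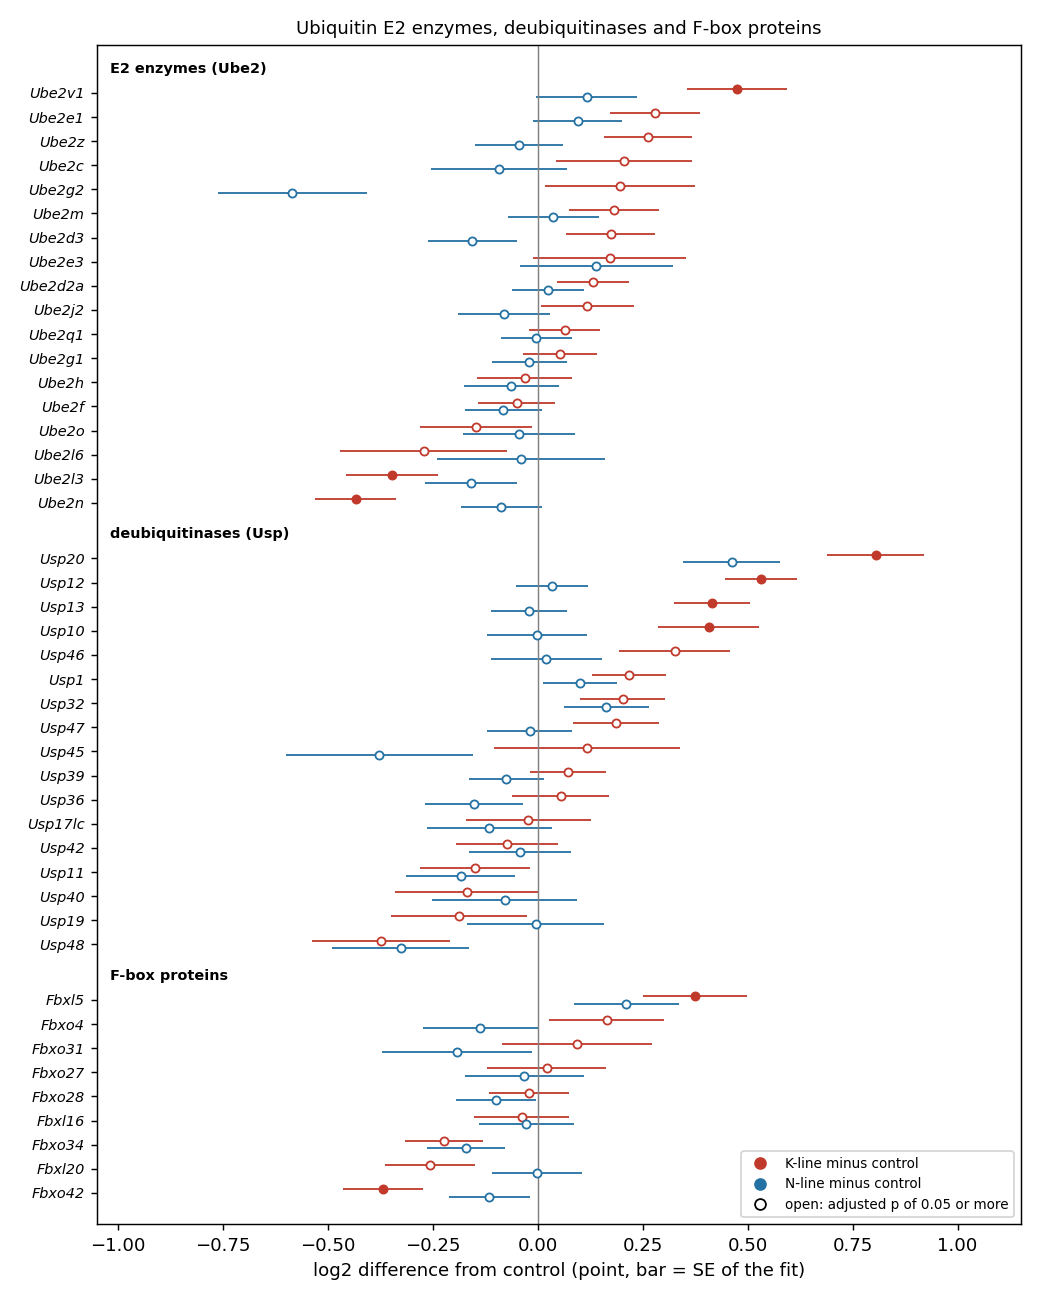
Log2 difference from control (points, with bars for the SE of the fit) of 18 of the 19 tested E2 enzymes and of the tested deubiquitinases and F-box proteins in K-line (red) and N-line (blue), sorted by the K-line value within each role; filled points passed the test. The filled points are Ube2v1, Usp20, Usp12, Usp13, Usp10 and Fbxl5 on the higher side and Ube2l3, Ube2n and Fbxo42 on the lower side, all in K-line.

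The comparison of N-line with control hearts asked the same of the normal transgene. None of the 68 tested members was called by limma (0 genes, against 0.929% of all tested probes), and 3 members had an unadjusted p under 0.05, beside 11.8% of all tested probes. These 3 were Usp20, Psmb10 and Ube2g2, named after their values were seen. Usp20 differed by 0.46 (SE 0.12, adjusted p = 0.1), with no overlap between the groups, and it was called with array weights and without K-line 5. Ube2g2, an E2 of degradation from the endoplasmic reticulum, was at 6.65, 6.52 and 6.66 on control and at 6.12, 6.31 and 5.63 on N-line arrays, all lower, with a difference of -0.58 (SE 0.18, adjusted p = 0.18). The 17 core subunits had a median of 0.02, with 14 of 17 above 0, and differences between -0.04 and 0.24 apart from Psmc1. Psmc1 is among the 14 and passed the filter only through the transgenic lines. K-line and N-line were compared with the same control arrays, so the values of a gene in both comparisons are not independent.

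The lines were then compared directly, which tests whether K-line differed from N-line. In K-line 15 members were higher and 2 lower, which is 25% of 68 against 24.2% of all tested probes (12.1% higher and 12.2% lower). Of the 17 core subunits 9 were higher, and all 17 lay above N-line with a median of 0.34. Without N-line 2 the count of higher members was 8 and that of core subunits 5. In the centred values of the authors, 13 of the 17 lay above N-line and 2 were called. Psmb5 differed by 0.65 (SE 0.10, adjusted p = 0.00121), Psma4 by 0.54 (SE 0.10, adjusted p = 0.0039) and Psmd11 by 0.62 (SE 0.15, adjusted p = 0.0114). The smallest of the 9 was Psmb10, at 0.27 (SE 0.09, adjusted p = 0.0459), and it was called in 7 of 20 alternatives. Usp20, highest by rank against control, differed between the lines by 0.34 (SE 0.12, adjusted p = 0.0529), which did not pass, and by 0.46 without K-line 5 (adjusted p = 0.0132). Psmd2, not called by its brighter probe, was called by its dimmer one, at 0.62 (adjusted p = 0.0316).

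Among the remaining members, Usp12, Usp13 and Usp10 were higher in K-line than in N-line by 0.50, 0.44 and 0.41 (adjusted p = 0.00223, 0.00591 and 0.0302). Ube2g2, with K-line arrays at 6.50, 6.84 and 7.06, was higher by 0.78 (SE 0.18, adjusted p = 0.00962), the largest called difference between the lines, and here it was the N-line arrays that stood away from control. Its dimmer second probe gave 0.11 and was not called. Ube2d3, a general-purpose E2, was higher by 0.33 (SE 0.11, adjusted p = 0.043) and Usp6nl by 0.36 (SE 0.10, adjusted p = 0.0277). Lower in K-line were Ube2n at -0.35 (SE 0.10, adjusted p = 0.0248) and Psme1 at -0.37 (SE 0.12, adjusted p = 0.0439). A second probe of Psme1, bright as well, gave -0.31 (adjusted p = 0.181) and was not called, and it was at -0.09 against control. Without K-line 5, the array on which Psme1 was lowest, no member was called lower.

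Genes of the same system under other symbols were taken from lists by role, of which 59 genes were tested. In K-line minus control 9 rose and 3 fell (20.3%, beside 24.4% of all tested probes), and in N-line minus control none passed (0.929% of all tested probes). The 9 include Ubr1 and Vcpip1, which were below background on control. They passed the detection filter only through arrays of the transgenic lines, so their rise adds nothing to the count. Called most often were genes of the ubiquitin receptors and the segregase that pulls ubiquitinated proteins out of complexes, of which 4 of 6 rose. Sqstm1, the autophagy receptor p62, was at 11.06, 11.22 and 11.02 on control, 12.07, 12.11 and 12.46 on K-line and 10.84, 10.89 and 10.76 on N-line arrays. K-line was about 1 log2 unit above the others and N-line was below control, with a K-line rise of 1.11 (SE 0.12, adjusted p = 0.000105). The segregase Vcp rose by 0.29 (SE 0.09, adjusted p = 0.041) and its cofactor Nploc4 by 0.45 (SE 0.14, adjusted p = 0.0413), but Vcp was at -0.02 in the authors' table after centring, and they were called in 8 and 9 of 19 alternatives.

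Adrm1, the ubiquitin receptor of the 19S cap that the symbol rule leaves out, was at 9.49, 9.59 and 9.37 on control, 9.98, 10.06 and 9.97 on K-line and 9.47, 9.54 and 9.41 on N-line arrays. K-line lay above all others, as in the 9 risen subunits, and it rose by 0.53 (SE 0.09, adjusted p = 0.00233). Psmf1, known in vitro as an inhibitor of the barrel, fell by 0.33 (SE 0.10, adjusted p = 0.0424), but it was called in 10 of 19 alternatives and not without any one control array, K-line 5, K-line 6, N-line 2 or N-line 4. Of the ligases outside the cullin class 2 of 15 rose and none fell, which is 13.3% called beside 24.4% of all tested probes (12% called higher). Rnf4, which reads SUMO chains, rose by 0.53 (SE 0.10, adjusted p = 0.00392). Ubr1, which reads destabilising protein ends, was at least 1.36-fold higher from below background on control (adjusted p = 0.00261). It passed the filter only through arrays of the transgenic lines. Rps27a, which encodes ubiquitin fused to a ribosomal protein, rose by 0.31 (SE 0.09, adjusted p = 0.0326). It was called in 11 of 19 alternatives, with a difference of 0.06 at the lowest, and not with median scaling or without control 1, control 2, K-line 3 or K-line 5. The deubiquitinase Otub2 fell by 0.44 (SE 0.11, adjusted p = 0.0139), a call lost without control 1 or control 2. Vcpip1, which passed the filter in the same way as Ubr1, was at least 1.26-fold higher (adjusted p = 0.0436). It was called in only 6 of 18 alternatives and not without any one control array, K-line 5, K-line 6 or N-line 4. The F-box protein Fbxw7 fell by 0.39 (SE 0.10, adjusted p = 0.0193), a call lost without control 2, control 3 or K-line 5. None of 3 E1 enzymes and none of 10 genes of the cullin core and the COP9 signalosome passed.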

How the data were processed

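Heart RNA in 3 groups of 3 arrays was hybridised to Illumina bead arrays (Mouse-6 v1.1). The authors deposited, per the file headers, the mean bead intensity of each probe exported from BeadStudio 2.3.47 without normalization, with the number of beads and their spread. A detection score was deposited as a fraction between 0 and 1, from which the detection p was taken as 1 minus the score. The authors' value table is a background-subtracted intensity with negative values, for which no normalization is given in the sources used here. Column medians were 9.28 to 9.29 for K-line and 7.55 to 7.57 for the rest, so it served only as an alternative.

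Intensities were background-corrected (limma 3.58.1 in R 4.3.3, normexp with detection p-values, offset 16), quantile normalized over all arrays and taken to log2. Probes with detection p under 0.05 on at least 3 arrays were tested with lmFit and eBayes in a model of 3 group means, adjusted by Benjamini-Hochberg over 19691 probes at 0.05. Differences are of log2 means with the SE of the fit, n = 3 per group, and a gene takes its brightest tested probe. A bound written "at least N-fold" is set against the lowest detected signal where a group was below background on all arrays. It uses the mean of the higher group, in which undetected arrays also count. Per array, 17937 to 19021 probes were detected with a median of 35 to 38 beads, and the number of arrays limits the precision. On simulated data for K-line minus control (19691 probes, 200 of them changed), 34 of 100 changes of 0.5 and 86 of 100 of 1 on the log2 scale were recovered, with 8 false calls. In the data 24.4% of tested probes were called, which makes the adjusted threshold less strict than in the simulation. The simulated shares therefore do not measure the recovery in these data.

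Genes were named by reading the number in a probe code as an NCBI gene number, since 9796 of 11857 such codes (82.6%) matched the RefSeq table of GRCm38.p6; this reading is inferred. Members, gene lists and tests were chosen with earlier results of these data known. Named are all members called against control, the catalytic subunits, Psme1 and Psme2, and further genes chosen after their values were seen. Transgene levels and the values of some genes are not reported here.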

Additional observations from a re-analysis of the deposited data

Results flagged for a closer look

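The members below differed between the lines by the test of the difference itself, K-line minus N-line (limma, adjusted p under 0.05), as log2 differences with n = 3 arrays per group. Higher in K-line were the 20S subunits Psmb5 (0.65), Psma5 (0.62), Psma4 (0.54), Psmb6 (0.44) and Psmb10 (0.27), and the 19S subunits Psmd11 (0.62), Psmc6 (0.58), Psmc3 (0.46) and Psmd1 (0.34). Also higher were the E2 enzymes Ube2g2 (0.78) and Ube2d3 (0.33), the deubiquitinases Usp12 (0.50), Usp13 (0.44) and Usp10 (0.41), and Usp6nl (0.36). Lower in K-line were the activator subunit Psme1 (-0.37) and the E2 enzyme Ube2n (-0.35). The K-line arrays share a slide that holds no N-line array and went against the label male, and the part of either in these differences cannot be told apart from that of the line.

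With 1 array left out at a time, the calls of Psmb5, Psma4, Psmb6, Psmc3, Ube2g2, Usp12 and Usp13 held each time. Those of Psmd11 (without N-line 2), Psmd1 (without N-line 3) and Usp6nl (without K-line 5 or N-line 2) were lost with the arrays named. Psma5 was lost without control 3, K-line 5, K-line 6 or N-line 2, and Usp10 without K-line 3, K-line 5, N-line 2 or N-line 4. Psmc6 was lost in 6 of the 9 omissions, Ube2d3 in 7, Ube2n in 5 (K-line 5, K-line 6 and each N-line array), Psme1 in 8 (all but K-line 3) and Psmb10 in all 9.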

How the results depend on the processing

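Of 68 tested members in 3 comparisons, none changed direction in a call under 21 alternatives. Members higher in K-line than control were 15, but 32 in the authors' value table and 7 after centring it (an alternative added after seeing the data). Members lower were 3, but 5 with median scaling, 0 in the authors' table and 5 after centring. Against N-line, 15 were higher, but 34 in the authors' table and 6 after centring, and 2 were lower, but 1 without the detection filter, with only the groups compared or with the mean of a gene's probes, 0 in the authors' table and 4 after centring. In N-line minus control the count was 0, and 1 with array weights. The authors' table moved the median of all probes by 0.23 in K-line minus control, and the share of all calls that were higher was 49.2% here, 35% with median scaling, 84.7% in the authors' table and 32.5% after centring it; the cause was not tested.

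Leaving out 1 array at a time gave 12 to 16 members higher and 1 to 3 lower in K-line minus control, 0 to 1 called in N-line minus control, and 8 to 16 higher and 0 to 2 lower in K-line minus N-line. The count of 3 lower became 1 without control 1, control 2 or K-line 6, and the 15 higher than N-line became 8 without N-line 2. The 2 lower than N-line became 1 without any one control array and 0 without K-line 5, K-line 6 or any one N-line array. Among the 17 subunits, 8 to 11 rose against control with 1 array left out, and 7 with median scaling, 14 in the authors' table and 5 after centring it.

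The labels do not say that an array number marks a shared litter, batch or day, and K-line shares a single number with each other group, so the numbers were not taken to pair arrays. Deviations of same-numbered arrays correlated at 0.224 and 0.109 for control and N-line, the first being the highest of all pairs between groups, and at 0.02 and -0.05 for K-line with each. With the replicate number as a random replicate block (correlation 0.149), 16 members were higher and 3 lower in K-line minus control, 0 called in N-line minus control, and 17 higher and 2 lower in K-line minus N-line. With 3 arrays per group, most changes of 0.5 on the log2 scale were missed in the simulation, where only 200 of 19691 probes were changed. The share missed in the data is not known. Usp46 and Psmc1, below background on all control arrays, have no measured size against control.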
